A study of Mus musculus with 38 samples.

Results

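The RUNX1 peaks of LP cells that carried guide RNAs against Ctcf (sgCTCF) were compared with those of LP cells that carried control guides (sgCont). The members were all peaks of these lists, 975 for sgCont and 874 for sgCTCF, or 1849 of the 359759 peaks in all lists of the series. A peak of sgCont that shared at least 1 bp with a peak of sgCTCF was called kept, an sgCont peak without such a partner was called lost, and an sgCTCF peak without a partner in sgCont was called gained. Peaks that the authors annotated as promoter-TSS (from 1 kb before to 100 bp after a transcription start) were read apart from all other peaks. The LP lists of RUNX1, CTCF, Med12 and p300 from cells without guides were then laid over them.

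LP is a lymphoid progenitor line, Cas9-LP, made from fetal liver progenitors of Ebf1-deficient mice that carry a Cas9 transgene in Rosa26, so both groups lacked Ebf1 and expressed Cas9. Both were grown on OP9 stroma, which gives no Notch ligand, with SCF, Flt3L and IL-7. They differed in the guides, which were pooled for each gene, delivered by retrovirus and marked by hNGFR, and the control guides were directed against luciferase. Each group had 2 replicate ChIP samples per the labels, and each deposited list combined both, so no difference between the lists could be set against the spread between cultures. The study describes the ChIP-seq of Ctcf-deficient cells as made from scarce material and noisy. Read totals of single lists were not used here, so the lists were not compared by depth, and CTCF occupancy after the Ctcf guides was not analysed here. The lists hold no expression values, so neither the LP label nor the loss of Ctcf was checked against them.

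RUNX1 is a DNA-binding factor that pairs with Cbfb and is needed for lymphoid and T cell development, where it can activate or repress its targets. CTCF is a zinc finger protein that binds a long motif and, with cohesin, sets the borders of chromatin loops. Med12 is a subunit of the Mediator complex, which links factors at enhancers and promoters to RNA polymerase, and p300 is an acetyltransferase that marks active enhancers.

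The sequences of the highest-scored peaks outside promoters are shown because they carry the contrast that the comparison rests on, an LP CTCF peak being present or absent at kept, lost and gained RUNX1 sites. Each is the 200 bp around the peak centre, plus strand, mm10. Capitals mark the RUNX string, TGTGGTT or TGCGGTT, on either strand, so that AACCACA and AACCGCA are the same strings read from the other strand. Names are those of the nearest gene. The kept pair is Slc45a1 (chr4:150566219-150566418), with an LP CTCF peak, and Dad1 (chr14:54227476-54227675), without one.
Slc45a1: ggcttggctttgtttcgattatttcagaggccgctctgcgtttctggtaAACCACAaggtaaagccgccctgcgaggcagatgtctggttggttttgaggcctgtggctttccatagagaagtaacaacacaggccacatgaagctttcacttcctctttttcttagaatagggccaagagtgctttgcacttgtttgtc
Dad1: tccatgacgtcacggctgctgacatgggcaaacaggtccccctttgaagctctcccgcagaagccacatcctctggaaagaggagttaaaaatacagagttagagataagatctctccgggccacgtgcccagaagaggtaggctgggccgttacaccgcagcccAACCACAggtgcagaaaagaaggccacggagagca
The lost pair is Arhgap23 (chr11:97434875-97435074), with an LP CTCF peak, and Atp13a2 (chr4:140983533-140983732), without one.
Arhgap23: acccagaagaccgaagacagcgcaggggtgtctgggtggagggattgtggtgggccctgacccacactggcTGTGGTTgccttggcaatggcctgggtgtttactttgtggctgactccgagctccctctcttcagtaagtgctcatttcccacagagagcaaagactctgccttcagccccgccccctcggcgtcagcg
Atp13a2: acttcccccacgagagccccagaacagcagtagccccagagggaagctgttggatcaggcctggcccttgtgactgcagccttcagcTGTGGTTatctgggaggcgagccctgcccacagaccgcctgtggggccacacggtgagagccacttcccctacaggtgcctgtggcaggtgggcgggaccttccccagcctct
The gained pair is Ky (chr9:102539825-102540024), with an LP CTCF peak, and Treh (chr9:44649063-44649262), without one.
Ky: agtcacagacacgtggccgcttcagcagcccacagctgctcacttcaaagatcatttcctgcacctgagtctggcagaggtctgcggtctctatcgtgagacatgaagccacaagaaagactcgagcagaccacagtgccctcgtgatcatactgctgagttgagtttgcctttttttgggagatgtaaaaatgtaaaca
Treh: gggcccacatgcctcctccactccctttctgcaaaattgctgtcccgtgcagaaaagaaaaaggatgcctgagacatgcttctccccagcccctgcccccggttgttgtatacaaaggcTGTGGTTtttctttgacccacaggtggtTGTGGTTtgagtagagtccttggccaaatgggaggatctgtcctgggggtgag
The RUNX string occurred at every one of these sites except Ky, and Treh held 2 copies. None held the CTCF string, a 12-letter form of the CTCF motif, and this includes the 3 sites that overlapped an LP CTCF peak.

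The Slc45a1 peak lay in intron 11 of 22 of Rere, a transcriptional corepressor gene, and its score was 52.3 in sgCont and 65.5 in sgCTCF. Dad1, whose gene adjoins the T cell receptor alpha locus, was nearest to the highest-scored kept peak outside promoters, an intergenic peak 26.354 kb from its start with scores of 74.4 and 60.8. Every site shown above, kept, lost or gained, overlapped an LP Notch1-IC peak, except the lost one near Arhgap23. The score is the normalized peak score of the authors' peak caller, and its scale is not stated. It is read here only within 1 list, except that the alternative minimum scores below were set alike for both lists. The lost Arhgap23 peak was intergenic, with a score of 39.7 in sgCont, and its LP CTCF peak, with a score of 95.7, was centred 151 bp to its left. The lost Atp13a2 peak, 3.241 kb from the start of this lysosomal ATPase gene, had a score of 60.8, the highest of any lost peak. The gained Ky peak lay in intron 10 of 10 of Ky with a score of 29.1 in sgCTCF, and the gained Treh peak was intergenic with a score of 47.2, the highest of any gained peak.

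To ask whether RUNX1 left its sites when Ctcf was targeted, the peaks of each list were first counted. Of the 975 sgCont peaks, 576 were kept and 399 lost (40.9%), and of the 874 sgCTCF peaks 298 were gained (34.1%). Promoter peaks gave 321 kept, 241 lost and 142 gained, and other peaks gave 255 kept, 158 lost and 156 gained. Losses exceeded gains at promoters, whereas outside promoters they were nearly equal in number. The lists differ in length, and with equal numbers of top-scored peaks there were 216 lost and 163 gained promoter peaks and 125 lost and 178 gained other peaks. The share of sgCont peaks kept was 57.1% at promoters (95% Wilson interval 53.0 to 61.1%) and 61.7% elsewhere (57.0 to 66.3%), and the difference did not pass the test (Fisher's exact test, odds ratio 0.825, adjusted p = 0.271). Read from sgCTCF, 69.2% of promoter peaks and 62.2% of other peaks were found in sgCont (odds ratio 1.36, adjusted p = 0.118, Fisher's exact test). P-values were adjusted by Benjamini and Hochberg over the 11 Fisher tests of this comparison. In all tests the peaks were the units, so the p-values describe these lists and carry no error between cultures.

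Kept peaks sat on nearly the same bases in both lists. The centres of the 576 pairs were a median of 24 bp apart, and 546 were within 100 bp. Annotation was read from sgCont, and 6 pairs were promoter in 1 list and other in the second. Scores of the pairs ran in parallel (Spearman's rho 0.851 across sites, a description, since sites share their libraries and were chosen for being in both lists). When the 576 sites were ranked in each list, the median change of rank, in percent of the ranks, was 0.43 at promoters and -1.04 elsewhere, and 288 sites ranked lower in sgCTCF. The ranks at promoters with an LP CTCF peak moved by a median of 0.74, against 0.17 at promoters without one. These shifts are small beside the quartiles of the shift, -6.09 and 7.39 at all promoters.

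Nearly every member was a site of strong RUNX1 binding in unperturbed LP cells. An LP RUNX1 peak overlapped 954 of the 975 sgCont peaks (97.8%) and 861 of the 874 sgCTCF peaks (98.5%). The LP RUNX1 list itself held 31995 peaks, with a median score of 47.0, while its peaks at kept sites had a median of 236.3, at lost sites 191.05 and at gained sites 153.65. Of the LP RUNX1 peaks in the highest of 10 classes by score, the sgCont list held 412 of 1942 promoter peaks (21.2%) and 343 of 1258 other peaks (27.3%), and the sgCTCF list held 326 (16.8%) and 301 (23.9%). In the class with scores from 60.7 to 79.2, sgCont held 5 of 1197 promoter peaks and 0 of 2002 other peaks, and sgCTCF held 4 and 10. Both guide lists thus held mostly the strongest RUNX1 sites, and with so few sgCont peaks in that class a loss there was not detectable in these lists. Promoter peaks made up 57.6% of sgCont and 52.7% of sgCTCF.

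To compare sites that CTCF occupied with those that it did not, the members were split by the LP CTCF list. In the LP RUNX1 list, 29.6% of promoter peaks and 20.6% of other peaks overlapped an LP CTCF peak, which is the background over all RUNX1 sites. The members were mostly strong sites, for which the highest of the 10 classes by LP RUNX1 score is nearer. In that class 500 of 1942 promoter peaks and 289 of 1258 other peaks overlapped an LP CTCF peak. At promoters an LP CTCF peak was present at 76 of 321 kept sites (23.7%), 86 of 241 lost sites (35.7%) and 39 of 142 gained sites (27.5%). Outside promoters it was present at 75 of 255 kept sites (29.4%), 51 of 158 lost sites (32.3%) and 26 of 156 gained sites (16.7%). The lost sites had the highest share in both classes, while the class with the lowest share was kept at promoters and gained elsewhere.

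**Figure D1:**
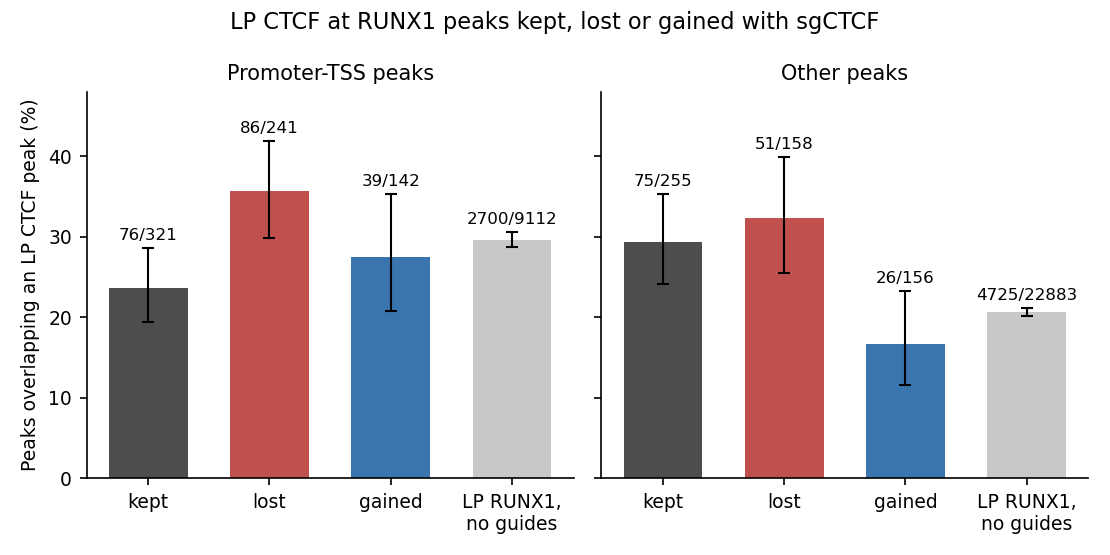
Share of RUNX1 peaks that overlapped an LP CTCF peak (y axis, percent) for kept, lost and gained peaks and for the LP RUNX1 list without guides, promoter-TSS peaks on the left and other peaks on the right. Bars are the shares, lines are 95% Wilson intervals and the fractions give the counts. The lost bars stand at 35.7% and 32.3%, and the lowest bar is that of gained other peaks at 16.7%.

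At promoters, sgCont peaks with an LP CTCF peak were found again less often than those without. Of 162 such peaks 76 were kept (46.9%, 39.4 to 54.6%), against 245 of 400 (61.3%, 56.4 to 65.9%). The difference was -14.3 percentage points (95% Newcombe interval -23.2 to -5.26), and the odds ratio was 0.559 (adjusted p = 0.0140, Fisher's exact test). The lost promoters of this kind included 1 annotated to Desi1 and nearest to Xrcc6, which encodes Ku70 of the DNA end-joining machinery, with a score of 58.0 in sgCont, and that of Pim1, a serine/threonine kinase gene, with 47.1. The odds ratio stayed under 1 in each of 12 alternatives. The call was lost when centres had to lie within 100 bp, for the LP CTCF overlap too (odds ratio 0.575, adjusted p = 0.310, Fisher's exact test). Of the 162 promoter peaks with LP CTCF, 61 had the CTCF centre that near. The call was also lost at minimum scores of 20 (0.571, adjusted p = 0.0797) and 30 (0.449, adjusted p = 0.187), by Fisher's exact test. Over quartiles of sgCont score the Mantel-Haenszel odds ratio was 0.589, and over quartiles of GC content, an alternative chosen after the data were seen, it was 0.558.

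Outside promoters the kept share hardly differed by LP CTCF. It was 75 of 126 (59.5%) with an LP CTCF peak and 180 of 287 (62.7%) without, a difference of -3.19 percentage points (95% Newcombe interval -13.5 to 6.78; Fisher's exact test, adjusted p = 0.712). Whether the odds ratios of the kept share differed between promoters and other peaks was not tested. With centres within 100 bp, for the LP CTCF overlap too, the direction turned (odds ratio 1.33 against 0.874). When the sites of exactly 1 list were set against each other, LP CTCF marked 32.3% of lost and 16.7% of gained other peaks, a difference of 15.6 percentage points (6.12 to 24.8; odds ratio 2.38, adjusted p = 0.0140, Fisher's exact test). With LP CTCF scores of at least 30 this odds ratio was 4.31 (adjusted p = 0.000507, Fisher's exact test). The lost share was close to the kept share of 29.4%, and the gained share was the lowest.

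At promoters the same contrast of lost against gained gave 35.7% and 27.5%, a difference of 8.22 percentage points (-1.54 to 17.3; odds ratio 1.47, adjusted p = 0.271, Fisher's exact test). The odds ratios of promoter and other peaks were not shown to differ (Breslow-Day chi-square test over peaks, p = 0.174). The threshold was passed in 1 of 10 alternatives, with only LP CTCF peaks scored at least 30 counted (Breslow-Day chi-square test, p = 0.0388, not adjusted). In the other 9 it was not passed. The call at other peaks was lost with centres within 100 bp for all overlaps (odds ratio 1.89, adjusted p = 0.321, Fisher's exact test). It was also lost at minimum scores of 20 (2.04, adjusted p = 0.126) and 30 (3.58, adjusted p = 0.279), by Fisher's exact test. With equal numbers of top-scored peaks it was lost too (1.99, adjusted p = 0.0589, Fisher's exact test). Over quartiles of LP RUNX1 score the Mantel-Haenszel odds ratio was 2.08, and over quartiles of GC content 2.45.

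**Figure D2:**
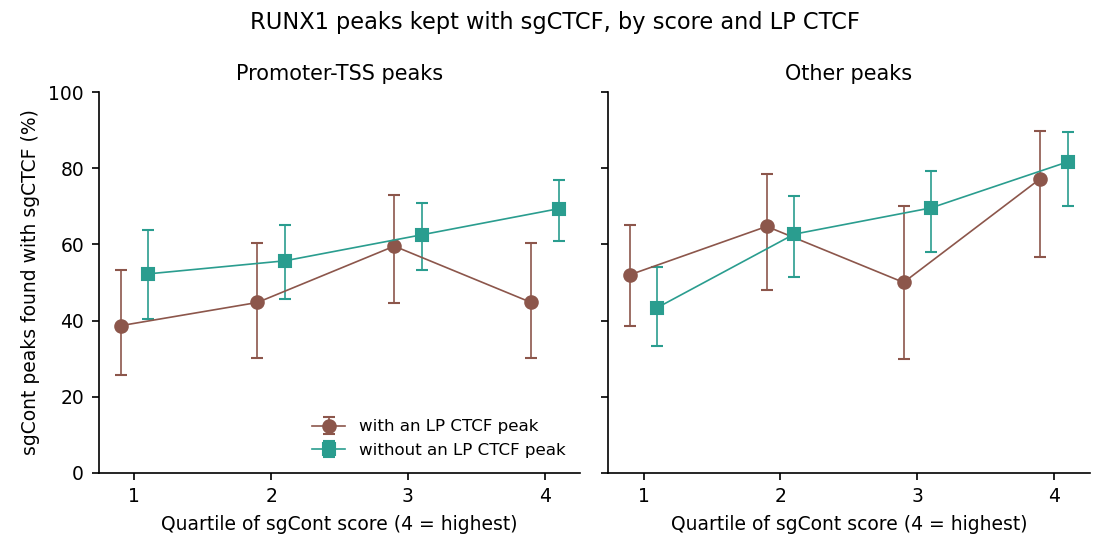
Share of sgCont RUNX1 peaks found again in sgCTCF (y axis, percent) in each quartile of the sgCont score (x axis, 4 is the highest), with and without an LP CTCF peak, at promoter-TSS peaks on the left and other peaks on the right. Points are shares and lines 95% Wilson intervals. In the highest quartile 44.7% of promoter peaks with LP CTCF were kept against 69.4% without, and the other peaks stood at 77.3% and 81.7%. In quartile 3 the shares were 59.5% and 62.5% at promoters and 50.0% and 69.6% elsewhere.

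Recovery rose with score in both lists. The kept share of sgCont peaks went from 46.7% in the lowest quartile of score to 69.3% in the highest, and the share of sgCTCF peaks found in sgCont went from 37.9% to 85.4%. Promoter peaks with an LP CTCF peak had 17 of 38 kept in the highest quartile (44.7%, 30.1 to 60.3%) against 86 of 124 without LP CTCF (69.4%, 60.8 to 76.8%). Outside promoters the highest quartile kept 17 of 22 with LP CTCF (77.3%, 56.6 to 89.9%) and 49 of 60 without (81.7%, 70.1 to 89.4%). In quartile 3 the shares with and without LP CTCF were 59.5% and 62.5% at promoters and 50.0% and 69.6% elsewhere. In quartile 2 they were 44.7% and 55.7% at promoters and 64.7% and 62.7% elsewhere. In the lowest quartile they were 38.6% and 52.2% at promoters and 52.0% and 43.4% elsewhere. The difference by LP CTCF thus varied between quartiles. Quartiles hold few peaks with LP CTCF, and these shares were not tested one by one.

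The same split was made in another pair of lists of this line, RUNX1 in Phase 1 cells (grown on OP9-DLL4, which supplies a Notch ligand) with sgCont, 1550 peaks, and with guides against Med12, 2094 peaks, read by the Phase 1 CTCF list. Of the Phase 1 peaks, 71.0% of sgCont and 52.6% of sgMed12 were found in the partner list. This comparison was chosen after the values above were seen. At promoters the kept share there was 71.4% with CTCF (40 of 56) and 75.8% without (100 of 132), an odds ratio of 0.80 against 0.559 in LP with sgCTCF. For lost against gained peaks the odds ratios with sgMed12 were 1.84 at promoters and 1.45 elsewhere, against 1.47 and 2.38 with sgCTCF. Outside promoters the kept share with sgMed12 was higher with CTCF, 76.4% against 68.7%, an odds ratio of 1.47 against 0.874. None of the 4 pairs of odds ratios was shown to differ (Breslow-Day chi-square tests, p = 0.376, 0.578, 0.0475 and 0.122 in the order promoter kept, promoter lost against gained, other kept and other lost against gained, smallest adjusted p = 0.190). With 56 Phase 1 promoter peaks with CTCF these tests could miss a difference. They therefore do not show whether the pattern by CTCF was particular to the Ctcf guides. Stage and guide cannot be told apart between these pairs.

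The CTCF peaks at lost sites had higher median scores than those at kept sites. Outside promoters the median score of the overlapping LP CTCF peak was 55.1 at lost sites (quartiles 26.6 and 160.4), 31.2 at kept sites (24.95 and 45.4) and 23.75 at gained sites (19.8 and 54.7). At promoters it was 80.75 at lost, 58.55 at kept and 48.4 at gained sites. The median over the whole LP CTCF list was 65.7. Outside promoters an LP CTCF peak was present at 75 of the 255 kept, 51 of the 158 lost and 26 of the 156 gained sites. In each of these 3 classes most of the CTCF peaks had a score below that median. These scores are given as a description, with no test. The centres of the CTCF and RUNX1 peaks lay a median of 115 bp apart at lost, 75 bp at kept and 110 bp at gained other sites.

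Few of these CTCF peaks coincided with the CTCF string at the RUNX1 centre. The exact string was found at 1 of 398 lost and 1 of 298 gained sites (Fisher's exact test, p = 1) and at 0 of 575 kept sites, which allows a share of up to 0.664% by the Wilson interval. In the LP RUNX1 list 2.17% of all peaks held it, and in the LP CTCF list 16.6%. With 1 mismatch allowed, it was present at 14 of 162 sgCont promoter peaks with LP CTCF (8.64%, 5.22 to 14.0%) and at 6 of 126 other peaks with LP CTCF (4.76%, 2.20 to 10.0%). For LP RUNX1 peaks with LP CTCF the shares were 11.7% at promoters and 37.8% elsewhere, and for the LP CTCF list as a whole 62.9%. Windows of the LP CTCF list were centred on CTCF peaks and all others on RUNX1 peaks, so these shares are not alike. Of the 288 sgCont peaks with LP CTCF, 133 had the CTCF centre within 100 bp of their own. A window without the string says only that these letters are not in the 200 bp around the centre.

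**Figure D3:**
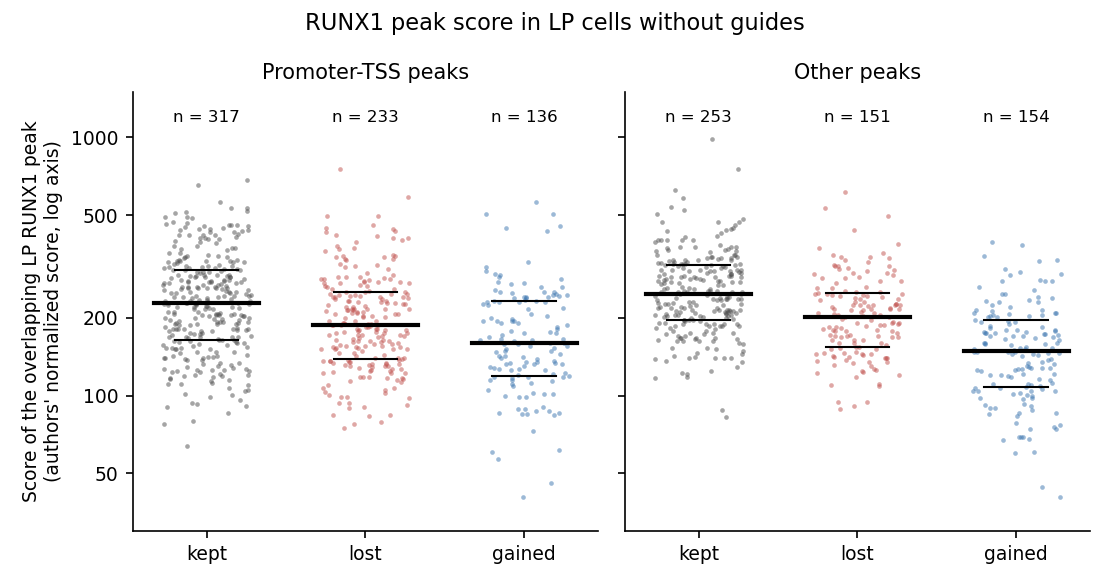
Score of the LP RUNX1 peak, from cells without guides, that overlapped each kept, lost or gained peak (y axis, authors' normalized score on a log axis), promoter-TSS peaks on the left and other peaks on the right. Each point is a peak, thick lines are medians and thin lines quartiles. Among other peaks the medians step down from 248.1 at kept to 202.5 at lost and 148.75 at gained sites.

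The RUNX1 score in LP cells without guides was higher at lost than at gained sites, with overlapping quartiles. Outside promoters the quartiles were 154.25 and 248.8 at lost and 108 and 196.375 at gained sites. Lost sites were called only in sgCont, which like the LP list had no Ctcf guides, and gained sites only in sgCTCF. Higher LP scores at lost sites can arise from that choice alone, so the tests below measure no effect of the Ctcf guides. Outside promoters the LP RUNX1 score had a median of 202.5 at 151 lost sites and 148.75 at 154 gained sites, and on the log2 scale the means were 7.66 ± 0.52 (SD) and 7.19 ± 0.62. The difference of 0.46, or 1.38-fold, passed the test (permutation test over peaks, two-sided, p = 2e-05, the smallest that the permutations can give, adjusted p = 4e-05). At promoters the medians were 187.6 at 233 lost and 159.45 at 136 gained sites, a difference of 0.24 on the log2 scale (permutation test, adjusted p = 0.00072). At a minimum score of 30 the difference at promoters no longer passed (0.15, adjusted p = 0.0706, permutation test). Both lost and gained sites lay below the kept sites, whose medians were 248.1 outside promoters and 227.8 at promoters. The medians thus ran in the order kept, lost, gained in both classes.

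Med12 and p300 peaks were present at nearly all sites of every class. Outside promoters an LP Med12 peak overlapped 252 of 255 kept (98.8%), 149 of 158 lost (94.3%) and 152 of 156 gained sites (97.4%), and an LP p300 peak 253, 152 and 151 of them. Lost and gained sites were not shown to differ for Med12 (difference -3.13 percentage points, -8.16 to 1.55, adjusted p = 0.353) or p300 (-0.59, -5.21 to 3.97, adjusted p = 1), by Fisher's exact test. At promoters, Med12 overlapped 229 of 241 lost sites and 98.1% of kept sites, and the shares of p300 ran from 96.3% to 97.5%. In the LP RUNX1 list, Med12 overlapped 80.6% of other peaks and p300 88.8%.

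Notch1-IC, the intracellular part of Notch1 that enters the nucleus, had peaks in LP cells, which were grown without Notch ligand, at most kept and lost sites outside promoters and at fewer of the gained ones. LP Notch1-IC peaks overlapped 159 of 255 kept (62.4%, 56.3 to 68.1%), 94 of 158 lost (59.5%, 51.7 to 66.8%) and 44 of 156 gained sites (28.2%, 21.7 to 35.7%). At promoters the shares were 5.30%, 4.15% and 1.41%, and in the LP RUNX1 list 5.71% of other peaks and 1.19% of promoter peaks. In cells grown on OP9-DLL4, Phase 1 Notch1-IC peaks overlapped 8 kept, 1 lost and 3 gained other sites (3.14%, 0.633% and 1.92%), and those of the later Phase 2 overlapped 17, 6 and 5 (6.67%, 3.80% and 3.21%). The Phase 1 sgCont RUNX1 list gave the same order, with 67.5% of kept, 53.2% of lost and 38.5% of gained other peaks. No test was made on these lists, and the LP RUNX1 score, which moved in the same order, is not held constant in these shares.

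**Figure D4:**
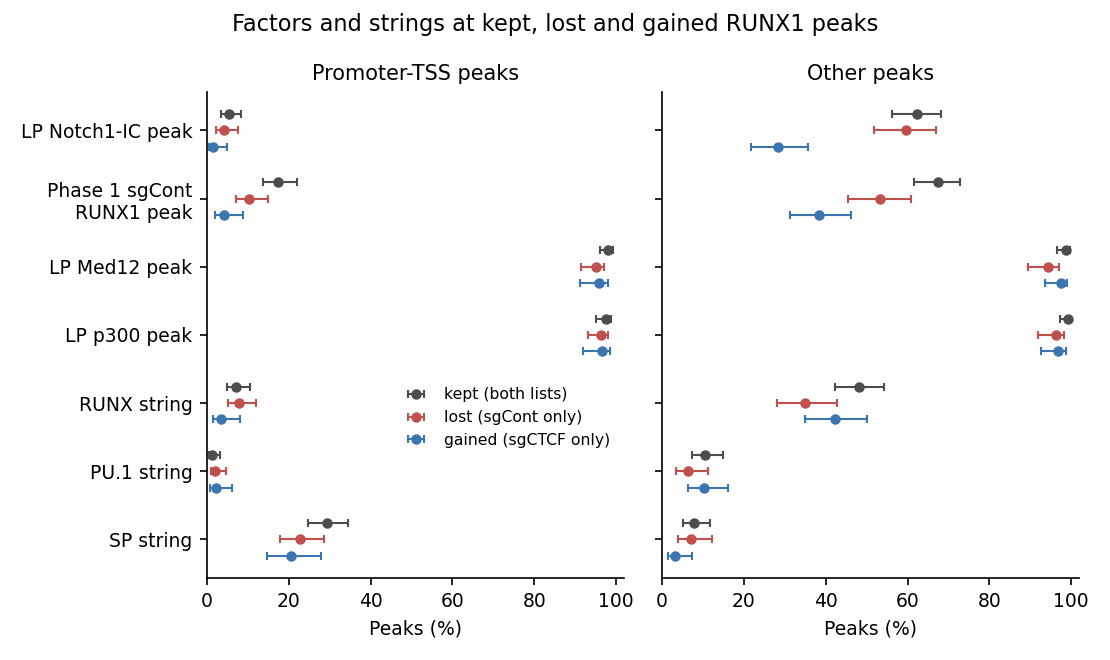
Share of kept, lost and gained RUNX1 peaks (x axis, percent) that overlapped a peak of each named list or held each string in the 200 bp around the centre, promoter-TSS peaks on the left and other peaks on the right. Points are shares and lines 95% Wilson intervals. Outside promoters the LP Notch1-IC share of gained sites, 28.2%, lies apart from 62.4% and 59.5%, while Med12 and p300 shares all exceed 94%.

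The RUNX string was a feature of the sites outside promoters. It stood in the 200 bp around 123 of 255 kept (48.2%), 55 of 157 lost (35.0%) and 66 of 156 gained centres (42.3%), against 4.49% to 6.69% in equal windows shifted by 2 kb in either direction. In the LP RUNX1 list 27.5% of other peaks held it. Lost and gained sites were not shown to differ (difference -7.28 percentage points, -17.8 to 3.48, adjusted p = 0.319, Fisher's exact test). At promoters it was rare, at 23 of 320 kept (7.19%), 19 of 241 lost (7.88%) and 5 of 142 gained centres (3.52%; lost against gained, adjusted p = 0.271, Fisher's exact test). The LP RUNX1 list held it at 5.39% of promoter peaks.

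Strings of other factors were counted in the same way. The string GGGGCGGGG, bound by SP factors at CpG-rich promoters, occurred at 29.4% of kept, 22.8% of lost and 20.4% of gained promoter peaks and at 21.1% of LP RUNX1 promoter peaks. The ETS string CCGGAAGT occurred at 6.56%, 7.88% and 7.04% of promoter peaks (8.40% in the LP RUNX1 list). Outside promoters GAGGAAGT, a form of the motif of the myeloid and lymphoid factor PU.1, occurred at 10.6% of kept, 6.37% of lost and 10.3% of gained peaks (11.4% in the LP RUNX1 list), and the AP-1 strings TGAGTCA and TGACTCA at 4.71%, 7.01% and 7.69% (7.29%). In windows shifted by 2 kb from these other peaks the AP-1 strings occurred at 4.51%, 4.14% and 2.24% and the PU.1 string at 0.784%, 0.318% and 3.21%. The GC content of the 200 bp had medians of 54.5% at kept, 56.5% at lost and 52.25% at gained other peaks, and 65.5%, 66.0% and 64.0% at promoters. The part of GC content in the other differences between the classes was tested only for LP CTCF, as given above.

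Outside promoters the sites were mostly intronic or intergenic. Introns held 137 of 255 kept (53.7%), 61 of 158 lost (38.6%) and 67 of 156 gained peaks (42.9%), and intergenic sequence held 41.6%, 51.9% and 49.4%. Over 10 kb from any start lay 61.6% of kept, 65.2% of lost and 63.5% of gained other peaks. Long terminal repeats were annotated at 20 kept peaks (7.84%), 5 lost (3.16%) and 8 gained (5.13%), against 9.43% of other peaks in the LP RUNX1 list.

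Rnf44, which encodes a RING finger protein, had the highest score of all members at its promoter (115.1 in sgCont and 91.0 in sgCTCF), followed by Brpf1, a subunit of histone acetyltransferase complexes (77.1 and 61.8), and Msh6, a DNA mismatch repair factor (69.4 and 69.1). None of these 3 overlapped an LP CTCF peak, while the promoter of Clic4, an intracellular chloride channel gene, did (66.4 and 63.2). Outside promoters the strongest kept peaks after that near Dad1 lay near Lmna, which encodes lamins A and C (70.3 and 62.9), in Rad52, a recombination gene (58.4 and 49.7), and in Cracdl (56.6 and 47.1). The peaks near Dad1 and Lmna and in Rad52 and Cracdl each held the RUNX string and an LP Notch1-IC peak.

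The strongest lost promoters, besides Xrcc6 and Pim1, included those of Nub1 (56.8) and Dop1b (52.8). Nub1 had an LP CTCF peak with a score of 178.5 whose centre was 89 bp from that of RUNX1, and Dop1b had none. Their LP RUNX1 scores, 498.2 and 429.2, show that strong LP sites were among those not found with sgCTCF. Outside promoters the strongest lost peaks after Atp13a2 were an intergenic peak upstream of the microRNA gene Mir23a (44.6) and one upstream of Aff3 (43.1). Each of these lost peaks overlapped an LP Notch1-IC peak. The strongest gained promoters were those of Kri1, a ribosome assembly factor gene (42.7), Poln and Haus3, to both of which 1 peak was annotated (42.5), Phf23 (42.4), Cuta (40.5) and Xpo1, the nuclear export receptor gene (39.9). Phf23 and Xpo1 had LP CTCF peaks, with scores of 51.3 and 214.1. Outside promoters the strongest gained peaks after Treh lay upstream of Wnt7b, a ligand gene (43.6), in the first exon of Tnrc6c (38.1), and near Osgin1 (37.8) and Fos (37.7), and none of these overlapped an LP CTCF peak. The gained peaks near Treh, Wnt7b and Osgin1 overlapped an LP Notch1-IC peak, and those at Tnrc6c and Fos did not.

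The 1273 sites had 1184 different nearest genes. Kept sites had 560 nearest genes, lost sites 385 and gained sites 294. Of the 1184 genes, 65 had 2 sites and 9 had 3 or more, so most genes of every class had a single site. A lost and a gained site occurred together at 12 genes. A kept site was also present at 22 of the 385 genes with a lost site and 23 of the 294 genes with a gained site. The genes with the most sites were Tex14, with 5 kept, and Runx3, with 2 kept and 3 lost.

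RUNX3 is a sister factor of RUNX1 in lymphocytes. Its promoter peak was kept with scores of 59.0 in sgCont and 54.0 in sgCTCF, as was a peak in intron 1 (26.4 and 22.6). The 3 lost peaks were intergenic, 1 before the gene and the others beyond its end, with sgCont scores of 29.9, 17.2 and 17.3. The promoter peaks of Runx1 (39.8 and 43.3) and of Cbfb, the partner of all RUNX proteins (29.2 and 29.1), were also kept. Near Tle3, which encodes a corepressor that RUNX proteins recruit, both peaks were lost (32.0 and 19.3). None of these peaks overlapped an LP CTCF peak. The 6 genes in the list of RUNX genes were nearest to 4 kept (0.694%), 5 lost (1.25%) and 0 gained peaks, against 0.253% of the LP RUNX1 list.

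Of 20 T-lineage genes, nearest-gene counts gave 2 kept peaks (0.347%, against 0.209% of the LP RUNX1 list), 0 lost and 0 gained, and the kept ones were at Cd3d, a subunit of the CD3 complex (35.8 and 26.5, in the last exon), and at the promoter of Lat, an adaptor of T cell receptor signaling (19.5 and 22.0). Both overlapped an LP CTCF peak, with scores of 18.3 and 33.5. Within the window read downstream of Hes1, a target gene of Notch, 2 peaks were kept and 1 was lost. One kept peak had scores of 35.6 and 27.7, and the other, with 18.0 and 17.8, overlapped an LP CTCF peak with a score of 26.0. The lost one had 17.0, the lowest score of any lost peak, and overlapped an LP CTCF peak with a score of 184.1. This lost peak overlapped no RUNX1 peak of LP cells without guides, although it overlapped a Phase 1 RUNX1 peak. Both kept peaks also overlapped a Phase 1 RUNX1 peak. The window held 1 LP RUNX1 peak without a Phase 1 RUNX1 peak and with an LP CTCF peak, with a score of 25.9. Among LP RUNX1 scores from 23.6 to 29.7, sgCont held 0 of 302 promoter peaks and 0 of 2898 other peaks. A loss at that peak was not detectable. At Notch1, which encodes the receptor itself, the intergenic peak nearest to Gm35978 was kept (44.9 and 36.1). The promoter peak of Sec16a in its window was also kept (43.6 and 42.5). A peak in intron 4 of 33 of Notch1 was lost (17.8), with an LP CTCF peak of score 24.2. The window of Notch3, another receptor gene, held 11 LP RUNX1 peaks, 4 of them without a Phase 1 RUNX1 peak and with an LP CTCF peak, but no member. The highest score among those 4 was 71.7, in the class of LP RUNX1 scores in which sgCont held 5 promoter and 0 other peaks. A loss there was thus not detectable in these lists. No member fell in the windows of Il2ra, Tcf7, Gata3, Bcl11b, Zap70 or Thy1 either. In the window of Lck the only member was the promoter peak of Hdac1, which was kept (40.3 and 35.7). The window of Dtx1 held 1 lost peak, nearest to Rasal1 (22.9), without an LP CTCF peak. From RUNX1 signal tracks of cells with control or Ctcf guides, the paper reports weaker RUNX1 binding at CTCF sites of Notch3 and Hes1 after Ctcf deletion. Signal tracks were not used here.

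Of 18 progenitor and myeloid genes, Lyl1, a bHLH factor of progenitors, was nearest to 1 of the 399 lost peaks (score 28.2), which overlapped an LP CTCF peak with a score of 163.7. The list's share of lost peaks was 0.251%, against 0.206% of the LP RUNX1 list. Near Spi1, which encodes PU.1, the promoter peak of the neighbouring gene Slc39a13 was lost (43.6), with an LP CTCF peak of 428.5. A peak in intron 20 of 23 of Flt3, a cytokine receptor gene of progenitors, was kept (24.4 and 25.1). Among 12 B-lineage genes, the promoter of Tcf3, which encodes E2A, was nearest to 1 gained peak (score 26.3), 0.336% of the gained peaks against 0.150% of the LP RUNX1 list for this list of genes. Of the 10 genes of chromatin architecture none was nearest to a member (0.0688% of the LP RUNX1 list), and the only member in their windows was a lost peak in Ripor1, near Ctcf itself (21.2). Genes for ribosomal proteins were nearest to 4 kept, 3 lost and 2 gained peaks (0.694%, 0.752% and 0.671%, against 0.481% of the LP RUNX1 list). Histone genes were nearest to 5 kept, 2 lost and 4 gained peaks (0.868%, 0.501% and 1.34%, against 0.247%).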

How the data were processed

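ChIP-seq peaks of RUNX1 in Cas9-LP cells with sgCont or sgCTCF were read from 2 lists, each built from 2 replicates per the labels. The authors aligned reads to mm10 with Bowtie 1.1.1, called peaks with HOMER (version not given in the sources used here) in factor mode against a matched control, kept peaks that were reproducible between replicates and annotated them. The unit used is the deposited normalized peak score of the authors, whose scale is not stated and whose minimum over the lists was 15. Read totals per sample were not used here, and intervals cover counting error of peaks only. The lists of 13 of the 17 ChIP groups were used, the 3 Phase 1 Med12 lists and the Phase 1 p300 list being left out as not needed. Peaks were 305 bp (sgCont) and 325 bp (sgCTCF) wide, and 2 and 1 of them lay off the 21 named chromosomes.

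Peaks that shared at least 1 bp were called overlapping. Shares were given with Wilson 95% intervals, differences with Newcombe intervals, and compared by Fisher's exact test (two-sided), sample odds ratios and Benjamini-Hochberg adjustment over 11 tests. Scores of overlapping LP RUNX1 peaks were compared on the log2 scale, computed from the deposited scores, by permutation tests over peaks (100000 resamples). Strings were searched on both strands in 200 bp around the centre in GRCm38. Nearest accessions of the authors matched a symbol of the RefSeq table of GRCm38.p6 for all 975 and 874 peaks, and gene windows (50 kb, and 300 kb after Hes1 and Gata3) came from GENCODE M21. Named peaks were the 5 highest-scored of each class at promoters and elsewhere, the 3 highest-scored other peaks with LP CTCF, and those at genes of fixed lists. Some named peaks are not reported here. The sites were analysed with Python 3.11.15, pandas 2.3.3, scipy 1.17.1, statsmodels 0.14.6 and pysam 0.24.0, and the counting steps were tested on simulated data. The members, gene lists and tests were chosen with earlier results of these data known. Alternatives were other overlap rules, score minimums, promoter and CTCF definitions, windows and stratified odds ratios.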

Additional observations from a re-analysis of the deposited data

How the results depend on the processing

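Results were recomputed under 14 other settings and 1 chosen after seeing the data, 190 values in all, of which 167 kept their direction and their side of the threshold, or stayed within 1.5 times for counts. No paired analysis was possible because each list combines both replicates, and for the same reason no replicate could be left out. At a minimum score of 30 the counts fell to 128 kept, 98 lost and 58 gained promoter peaks and to 71, 43 and 41 other peaks. At that minimum the odds ratio of the promoter kept share by LP CTCF was 0.449 (adjusted p = 0.187), that of lost against gained other peaks by LP CTCF 3.58, and the difference in LP RUNX1 score at promoters 0.15 on the log2 scale, none past the threshold (Fisher's exact and permutation tests). There too the odds ratios of lost against gained turned direction for the RUNX string (1.06 outside promoters and 0.451 at promoters) and for p300 (1.05), none of which was called. With so few peaks these values are imprecise. At a minimum of 20 the CTCF odds ratios were 0.571 and 2.04, and with centres within 100 bp 0.575 and 1.89, no longer called. The 100 bp rule was applied to all overlaps, those with LP CTCF and p300 included. With centres within 100 bp the kept share of other peaks by LP CTCF reversed (1.33), as did p300 (1.43), and p300 also did with promoters set by distance (1.01). With equal numbers of top-scored peaks the odds ratio of lost against gained other peaks by LP CTCF was 1.99, no longer called, and that of the CTCF string 1.00. With 1 mismatch the CTCF string gave 1.43. With LP CTCF scores of at least 30 the ratio of the promoter to the other odds ratio was 0.398. It passed the threshold in this 1 of 10 alternatives only (Breslow-Day chi-square test, p = 0.0388, not adjusted). The causes of these changes were not tested. Of the strongest named peaks, from 34 to 37 kept their class under each alternative overlap, score or annotation rule. At a minimum score of 30 no odds ratio could be given for Med12 or the CTCF string, because a cell was 0.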
